A study of Mus musculus with 9 samples.

Results

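Fc receptors bind the constant part of antibodies, and TYROBP is an adaptor through which a group of myeloid receptors, TREM2 among them, passes signals into the cell. The genes described here are Tyrobp, Fcer1g, Fcgr1, Fcgr2b, Fcgr3, Fcgr4, Trem2, Lyn and Syk, taken by symbol from the count matrix, which makes 9 of its 22851 genes. They were read in 9 mouse heart libraries of 3 groups with 3 libraries each. All animals were male mice, C57BL/6J in the methods and C57BL/6 in the labels, that entered the study at 6 to 8 weeks of age. CK mice were controls injected with citrate buffer. DCM mice, a model of diabetic cardiomyopathy, received a single injection of streptozotocin, a toxin of pancreatic beta cells, at 180 mg/kg and were followed for 12 weeks. SPM mice were given the polyamine spermine (1 mg/kg), daily during the 2 weeks that preceded the same streptozotocin dose and then on alternate days until week 12. Both treated groups therefore carried the streptozotocin, and no group received spermine alone.

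The activating Fc gamma receptors encoded by Fcgr1, Fcgr3 and Fcgr4 bind IgG and signal through the adaptor FCER1G, whose cytoplasmic ITAM tyrosines are phosphorylated by Src family kinases such as LYN and then recruit the kinase SYK. TYROBP carries an ITAM of the same kind. FCGR2B binds IgG too, but its cytoplasmic ITIM recruits phosphatases that restrain the signal of the activating receptors. In the heart these genes are known mainly from resident and recruited macrophages and from other blood-derived cells.

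The labels and the methods leave some points unsettled. The tissue label and the methods name the heart, whereas the extraction protocol of the labels speaks of retinas. The summed level of 6 cardiomyocyte markers, led by Myh6 and Myl2, lay between 32525 and 44498 normalized CPM (counts scaled to a common library total, adjusted by TMM factors) in the 9 libraries, and that of 6 retina markers between 0.422 and 1.44. The methods give 3 mice per group in one place and pools of 6 hearts in another, so a library may hold 1 mouse or a pool, and p-values measure the spread between these libraries only. Total counts per library ranged from 29901300 to 39718680. SPM replicate 2 stood apart. Its level was inside the interval spanned by SPM replicates 1 and 3 for 68.4% of the 12613 genes with a mean of at least 1 CPM, against 14.7% to 40.7% for the same measure in the other 8 libraries, and for 7 of the 8 members compared. Of 2656 genes without a count in SPM replicates 1 and 3, it had a count for 30. Its independence of the other SPM libraries is therefore in doubt. The SPM log2 fold changes of the tested members are given with and without it, singly or as a range. Shares and ratios include it except where stated.

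Among the members, 4 lie within 276 kb of mouse chromosome 1 (GENCODE M21 on GRCm38). Fcgr2b spans 170958617 to 170976547 on the minus strand, Fcgr4 171018920 to 171029761 on the plus strand, Fcgr3 171051174 to 171064935 on the minus strand and Fcer1g 171229572 to 171234365 on the minus strand. The other members are on other chromosomes. Fcgr1 is on chromosome 3 (96282909 to 96293969, minus strand), Lyn on chromosome 4 (3678115 to 3813122, plus strand), Tyrobp on chromosome 7 (30413760 to 30417585, plus strand), Syk on chromosome 13 (52583173 to 52648792, plus strand) and Trem2 on chromosome 17 (48346401 to 48354147, plus strand). All 9 are protein-coding. Their values are counts over the whole gene, so they do not separate exons, introns or UTRs. Reads of some members can also stem from related transcripts. Of the 50-base words of the longest Fcgr3 transcript, 12.8% also occur in Fcgr2b transcripts. Of those of Fcgr2b, 12.5% occur in 145 other genes, with the largest share, 6.9%, in Cplx2. Of those of Lyn, 21.8% occur in other genes, chiefly Gm11787. None of those of Tyrobp, Fcer1g, Fcgr1, Fcgr4, Trem2 and Syk do. The values of Fcgr2b, Fcgr3 and Lyn are therefore less certain. The antisense gene Gm38204 overlaps Fcgr2b, and the sources used here do not say whether counting used strand.

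The promoters of 7 members have an entry in the RefSeq table used here (GRCm38.p6). Tyrobp and Lyn have none. The 250 bases upstream of the start are shown for 3 receptor genes, Fcgr4 and Fcgr1 because they had the largest differences between groups, and Fcgr3 because it is the neighbour of Fcgr4 and had the highest level per length of the 4 Fc gamma receptor genes. Capitals mark matches to 3 motifs, searched on both strands, whose matches may overlap. They are GAGGAA, the core bound by ETS factors such as PU.1 in myeloid cells, TTCNNNGAA, the palindrome bound by STAT factors, and GAAA followed by any 2 bases and GAAA, the repeat bound by IRF factors.
Fcgr4, chr1:171018676-171018925, plus strand: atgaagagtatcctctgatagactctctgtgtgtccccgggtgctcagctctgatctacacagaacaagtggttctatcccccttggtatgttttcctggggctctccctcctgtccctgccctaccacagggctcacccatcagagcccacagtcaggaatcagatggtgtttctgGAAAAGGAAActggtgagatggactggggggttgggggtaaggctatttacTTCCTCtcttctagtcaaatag
Fcgr3, chr1:171059404-171059653, minus strand: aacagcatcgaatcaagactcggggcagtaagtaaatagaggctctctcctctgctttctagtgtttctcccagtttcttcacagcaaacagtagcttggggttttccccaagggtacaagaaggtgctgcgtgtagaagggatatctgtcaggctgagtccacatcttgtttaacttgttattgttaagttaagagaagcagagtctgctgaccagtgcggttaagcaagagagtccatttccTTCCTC
Fcgr1, chr3:96293970-96294219, minus strand: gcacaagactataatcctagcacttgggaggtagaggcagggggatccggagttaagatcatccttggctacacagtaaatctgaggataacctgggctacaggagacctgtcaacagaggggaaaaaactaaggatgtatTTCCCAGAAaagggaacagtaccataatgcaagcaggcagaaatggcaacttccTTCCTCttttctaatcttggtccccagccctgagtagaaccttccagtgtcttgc
GAGGAA, here in its reverse orientation TTCCTC, is in all 3 windows, and 5 of the 7 members have it in at least 1 window. The 7 members have 9 windows, as Fcgr3 and Syk have more than 1. Of 32817 mouse promoter windows of this length 23.3% have it, a share per window and not per gene. The IRF repeat was found only upstream of Fcgr4 among the 7 members, and in 2.97% of all windows. TTCNNNGAA was found only upstream of Fcgr1 among them, and in 7.01% of all windows. These are matches of letters and not measured binding.

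In DCM compared to CK, mRNA of the adaptors Tyrobp and Fcer1g and of the high-affinity IgG receptor Fcgr1 fell. Fcgr1 changed most, by a log2 fold change of -1.17, which is 2.26-fold lower. Fcgr3 and Fcgr2b were lower by less than the fold-change limit, and Fcgr4, Lyn and Syk did not pass the test. A gene was called when the adjusted p of edgeR's quasi-likelihood test was below 0.05 and the fold change at least 1.5. By this rule 3 of the 8 members tested were called, all lower, where 4.34% of the 14402 genes tested were called in either direction and 2.31% were called lower. For 6 members every DCM library lay below every CK library, as for 14.8% of the genes tested. The 8 log2 fold changes were all negative, with a median of -0.59 beside -0.00 for all genes tested. In whole tissue, fewer cells of a type and less RNA per cell cannot be told apart.

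Tyrobp (ENSMUSG00000030579) had 22.0, 23.2 and 19.0 normalized CPM in CK replicates 1 to 3 and 14.2, 10.3 and 13.4 in DCM replicates 1 to 3. All DCM libraries lay below all CK libraries. The fall was 0.76 on the log2 scale (SE 0.13, adjusted p = 0.00313 by edgeR's quasi-likelihood test), and the call held in all 17 alternatives. Fcer1g (ENSMUSG00000058715), the gamma chain shared by the activating Fc receptors, had 18.2, 18.6 and 13.7 normalized CPM in CK and 12.5, 9.14 and 11.3 in DCM. The groups again did not overlap, but CK replicate 3 and DCM replicate 1 were close together. The fall of 0.62 (SE 0.15, adjusted p = 0.0193, edgeR) was near the limits, and the call was lost without CK replicate 1, CK replicate 2, DCM replicate 2 or DCM replicate 3, at log2 fold changes of -0.56, -0.54, -0.50 and -0.63. It was also lost in a fit of all 9 libraries, at -0.62 with an adjusted p of 0.0555 (edgeR), and after a correction for GC content, at -0.58, which is under the fold limit.

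Among the receptors, Fcgr1 (ENSMUSG00000015947) had 8.77, 5.16 and 5.74 normalized CPM in CK and 2.94, 2.34 and 3.399 in DCM. Every CK library was above every DCM library, and CK replicate 1 was the highest. The fall was 1.17 on the log2 scale (SE 0.23, adjusted p = 0.00716, edgeR) and was called in all 17 alternatives. Fcgr3 (ENSMUSG00000059498), which encodes the low-affinity activating receptor CD16, had 34.6, 31.8 and 29.7 normalized CPM in CK and 24.7, 20.2 and 20.3 in DCM. Its groups did not overlap. Its adjusted p passed (0.00464, edgeR), but its log2 fold change of -0.56 (SE 0.10) stayed under the 1.5-fold limit. The inhibitory receptor gene Fcgr2b (ENSMUSG00000026656) had 21.8, 19.0 and 17.7 normalized CPM in CK and 15.95, 12.9 and 14.5 in DCM. Its difference was smaller, with a log2 fold change of -0.43 (SE 0.12, adjusted p = 0.0337, edgeR), also under that limit. Without a fold limit, 5 of 8 members passed, all lower, where 10.4% of all genes tested did and 5.11% did as lower. Fcgr4 (ENSMUSG00000059089), another activating IgG receptor, had 2.87, 1.45 and 1.56 normalized CPM in CK and 1.71, 0.745 and 0.791 in DCM. Replicate 1 of each group was the highest and the groups overlapped. The log2 fold change was -0.84 with a 95% interval of -1.73 to 0.06 (adjusted p = 0.236, edgeR).

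The kinase genes differed less. Lyn (ENSMUSG00000042228) had 41.4, 39.5 and 34.1 normalized CPM in CK and 30.6, 31.5 and 33.1 in DCM. The groups did not overlap, but the log2 fold change of -0.27 (95% interval -0.47 to -0.08) did not pass (adjusted p = 0.0746, edgeR). Syk (ENSMUSG00000021457) had 63.6, 57.6 and 57.7 normalized CPM in CK and 57.3, 59.0 and 61.9 in DCM. The ranges overlapped almost fully, and its log2 fold change of -0.01 (95% interval -0.17 to 0.16) changed sign between settings. Trem2 (ENSMUSG00000023992), a lipid-binding receptor of macrophages and microglia, was at the edge of detection. It had 8, 1 and 2 counts in CK, 6, 2 and 6 in DCM and 4, 0 and 2 in SPM, 31 counts in all 9 libraries, and did not pass the low-count filter. Its pooled level was 0.117 CPM in CK (exact 95% interval 0.0585 to 0.21), 0.133 in DCM (0.0727 to 0.223) and 0.062 in SPM (0.0228 to 0.135), intervals that cover counting error only. No difference in Trem2 was detectable at this depth.

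**Figure D1:**
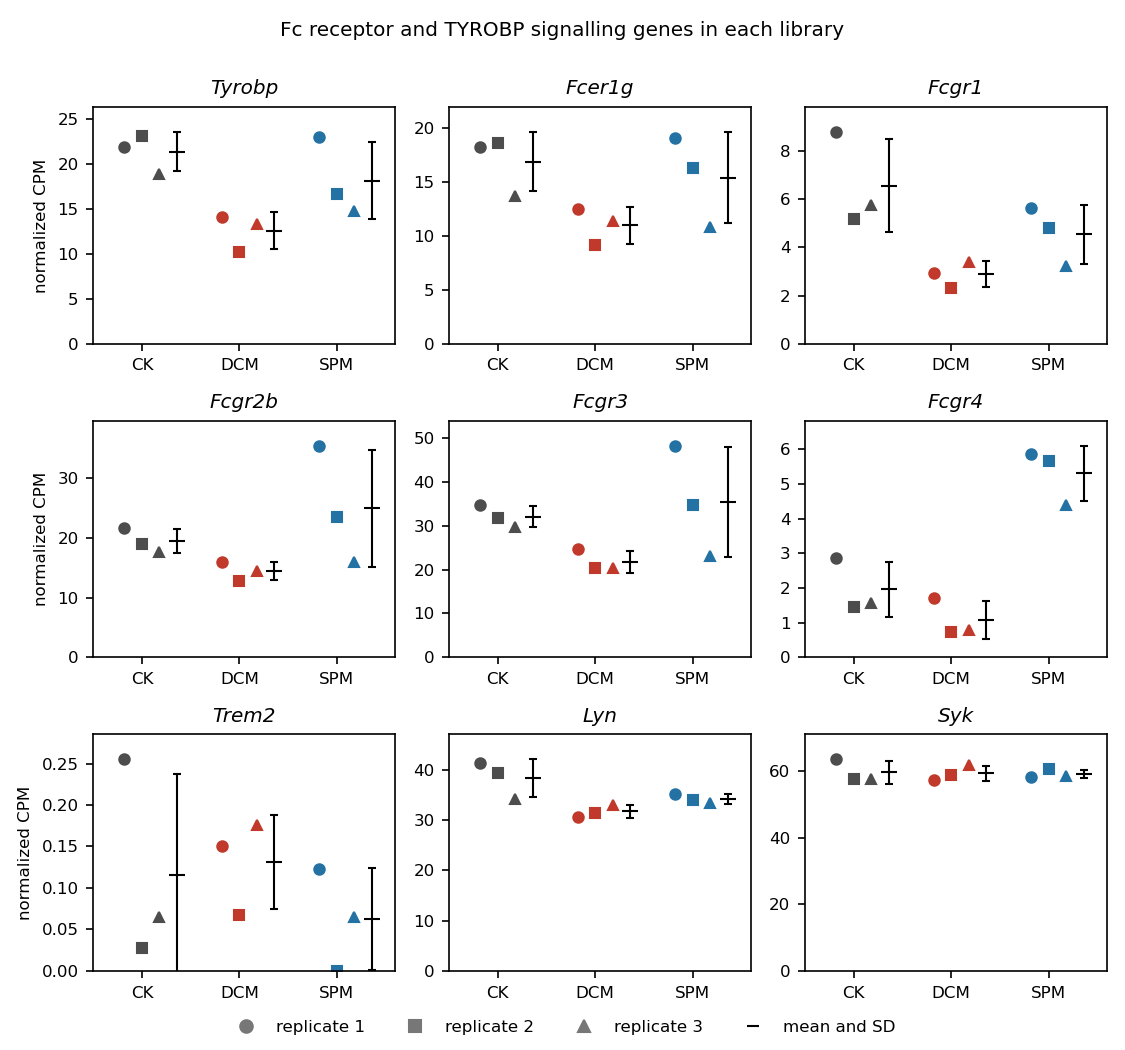
Normalized CPM of the 9 genes in each library, in 1 panel per gene with its own axis from 0; symbols mark replicates 1 to 3, and bars give the mean and SD of 3 libraries, ending at 0 for Trem2 in CK. Fcgr4 lies between 4.39 and 5.85 in SPM, above all CK and DCM libraries, whereas Syk lies between 57.3 and 63.6 throughout.

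Most macrophage markers changed in the same direction as these genes, though the CK and DCM ranges of their summed level overlapped. The summed level of 16 macrophage markers, led by Lyz2 and Csf1r, ranged from 913 to 1192 normalized CPM (CK), from 796 to 927 (DCM) and from 954 to 1561 (SPM), with no marker at 0. Of the 16 markers, 12 had negative and 4 positive log2 fold changes in DCM compared to CK, 3 were called lower and 1 was called higher. In SPM compared to DCM all 16 were positive, with a median of 0.62. Of these, 9 were called higher, or 1 without SPM replicate 2, where 2.70% and 0.283% of all genes tested were called higher. Set against the summed macrophage counts of the same library, Tyrobp went from 0.0199 ± 0.0013 in CK to 0.015 ± 0.0019 in DCM (SD, n = 3) and Fcgr1 from 0.00606 ± 0.0014 to 0.00346 ± 0.00071. Both ratios were lower in all DCM libraries than in all CK libraries. So were the ratios for Fcer1g, at 0.0156 ± 0.00074 and 0.013 ± 0.0014, and for Fcgr3, at 0.0299 ± 0.0024 and 0.0258 ± 0.00072. Each of these 4 ratios had a two-sided exact permutation p of 0.1, the smallest that 3 against 3 libraries can give, and 0.24 after Benjamini-Hochberg adjustment over 24 tests. The ratios for Fcgr2b, Fcgr4, Lyn and Syk overlapped between CK and DCM.

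In SPM compared to DCM, Fcgr4 rose 4.80-fold. Fcgr2b and Fcgr3 were called higher too, but with smaller differences and with calls that depended on single libraries. The adaptors Tyrobp and Fcer1g and the receptor Fcgr1 were not called, and Lyn and Syk had log2 fold changes of 0.11 and -0.00. Thus 3 of the 8 members tested were called, all higher, where 3.59% of the 14493 genes tested were called in either direction and 2.70% were called higher. For 4 members every SPM library lay above every DCM library, as for 19.7% of the genes tested. The median log2 fold change of the 8 members was 0.59, beside 0.01 for all genes tested. The DCM libraries also served in the comparison with CK, so the opposite signs of the 2 comparisons are not independent of each other.

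Fcgr4 had 5.85, 5.66 and 4.39 normalized CPM in SPM replicates 1 to 3, against 1.71, 0.745 and 0.791 in DCM. In raw counts these were 190, 176 and 135 against 68, 22 and 27. The lowest SPM library was above the highest DCM library and above the highest CK library. The log2 fold change was 2.26 (SE 0.30, adjusted p = 0.00786, edgeR), and Fcgr4 was called in all 17 alternatives, with log2 fold changes of 2.07 to 2.77 when a library was left out. Without SPM replicate 2 it was 2.22 (adjusted p = 0.0276, edgeR), and Fcgr4 was then the only member called, where 0.378% of all genes tested were called in either direction and 0.283% higher.

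Fcgr2b had 35.5, 23.6 and 15.98 normalized CPM in SPM against 15.95, 12.9 and 14.5 in DCM. SPM replicate 1 was the highest by far, and SPM replicate 3 was level with DCM replicate 1. The log2 fold change was 0.79 (SE 0.23, adjusted p = 0.0407, edgeR). Fcgr3 had 48.1, 34.6 and 23.1 normalized CPM in SPM against 24.7, 20.2 and 20.3 in DCM, with the same order of SPM libraries and with SPM replicate 3 inside the DCM range. Its log2 fold change was 0.70 (SE 0.21, adjusted p = 0.0455, edgeR). Both genes lost their calls with DESeq2, with limma on FPKM values and after the GC correction, where the log2 fold changes were 0.60 to 0.78 for Fcgr2b and 0.60 to 0.69 for Fcgr3. They also lost them without any one of 5 libraries. Without DCM replicates 1, 2 and 3 in turn, the log2 fold change was 0.86, 0.71 and 0.78 for Fcgr2b and 0.79, 0.65 and 0.64 for Fcgr3. With SPM replicate 1 left out it was 0.45 for Fcgr2b and 0.40 for Fcgr3, and with SPM replicate 2 left out 0.83 and 0.71. Without SPM replicate 3 both stayed called, at 1.02 and 0.92, in a fit that keeps SPM replicate 2, whose independence is in doubt.

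Tyrobp had 23.1, 16.7 and 14.8 normalized CPM in SPM. All 3 lay above the DCM libraries, but SPM replicate 3 was only slightly higher than DCM replicate 1. The log2 fold change was 0.52 (SE 0.17, adjusted p = 0.0555, edgeR). Fcer1g had 19.1, 16.3 and 10.9 normalized CPM in SPM, with replicate 3 inside the DCM range, and a log2 fold change of 0.49 (SE 0.19, adjusted p = 0.0959, edgeR). Fcgr1 had 5.63, 4.79 and 3.22 normalized CPM in SPM, again with replicate 3 inside the DCM range, and a log2 fold change of 0.65 (SE 0.23, adjusted p = 0.0798, edgeR). These 3 genes did not pass, but each was called without SPM replicate 3, at log2 fold changes of 0.65, 0.68 and 0.84, so that 6 members were called there. That fit leaves SPM replicates 1 and 2, and the independence of replicate 2 is in doubt. Lyn had 35.2, 34.0 and 33.4 normalized CPM in SPM, a log2 fold change of 0.11 with a 95% interval of -0.04 to 0.26, and -0.03 after the GC correction. Syk had 58.4, 60.7 and 58.4 normalized CPM in SPM, and its log2 fold change of -0.00 had a 95% interval of -0.15 to 0.14. Neither interval reaches a 1.5-fold difference. With SPM replicate 2 left out, the log2 fold changes were 0.59 for Tyrobp, 0.45 for Fcer1g and 0.61 for Fcgr1. They were 0.11 for Lyn and -0.02 for Syk, and none of these genes was called.

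**Figure D2:**
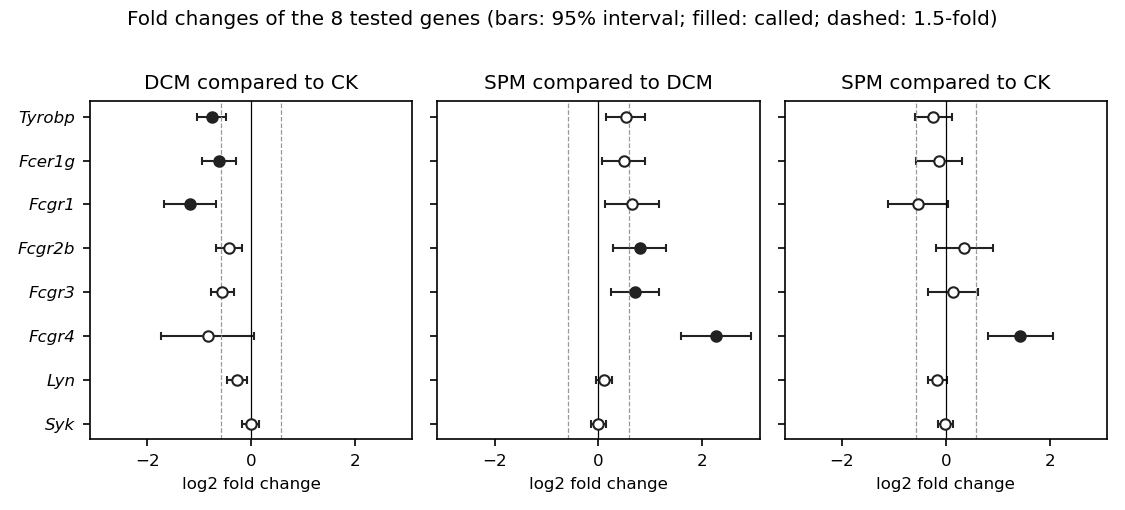
Log2 fold changes of the 8 tested genes in the 3 comparisons, with 95% intervals; filled points were called, and dashed lines mark a fold change of 1.5. Tyrobp, Fcer1g and Fcgr1 are called lower in DCM compared to CK, and Fcgr4 is the member farthest from 0 in SPM compared to DCM, at 2.26.

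**Figure D3:**
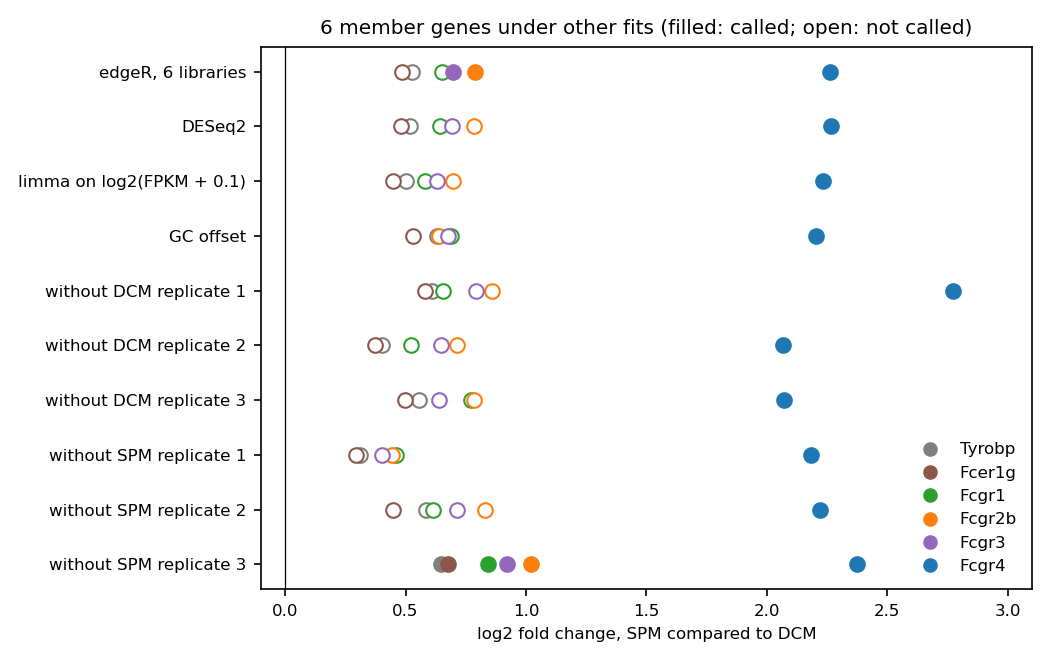
Log2 fold changes of 6 members in SPM compared to DCM by edgeR with all 6 libraries, by other methods and with each library left out; filled points were called. Fcgr4 stays called between 2.07 and 2.77, whereas Fcgr2b and Fcgr3 are called, of the fits drawn, only by edgeR with all 6 libraries and without SPM replicate 3.

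In SPM compared to CK, Fcgr4 was the member called, with a log2 fold change of 1.43 (SE 0.28, adjusted p = 0.00735, edgeR), or 2.70-fold higher. It was called in all 17 alternatives, and the log2 fold change was 1.39 without SPM replicate 2. Of the 14574 genes tested, 9.21% were called in either direction and 5.08% higher, and without SPM replicate 2 these were 5.18% and 2.90%. Fcgr4 was also the member whose SPM libraries all lay above the CK libraries, as for 23.3% of the genes tested. The other 7 members were not called. Their log2 fold changes ran from -0.53 for Fcgr1 (95% interval -1.11 to 0.05) to 0.35 for Fcgr2b (-0.19 to 0.90), and the median of all 8 was -0.08. Without SPM replicate 2 the log2 fold changes of these 7 ran from -0.57 for Fcgr1 to 0.40 for Fcgr2b, and none was called. Fcgr2b was called without SPM replicate 3, at 0.59, in a fit that keeps replicate 2. The 95% intervals for Tyrobp (-0.60 to 0.12) and Fcer1g (-0.58 to 0.31) include 0, which does not show that SPM and CK had the same level.

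Fcgr4 was also set against other genes of the same library, which needs no scaling between libraries. The count of Fcgr4 divided by that of Tyrobp was 0.131, 0.0625 and 0.0821 in CK, 0.121, 0.0724 and 0.0592 in DCM and 0.254, 0.34 and 0.296 in SPM. All SPM values were above all others, and the ratio was 3.67-fold higher in SPM than in DCM. Divided by the summed macrophage markers, Fcgr4 was 0.00126 ± 0.00051 in DCM and 0.00436 ± 0.00053 in SPM (SD, n = 3), a 3.62-fold difference with no overlap. Both had a two-sided exact permutation p of 0.1, the smallest possible here. Without SPM replicate 2 the log2 differences were 1.77 and 1.80, against 1.88 and 1.86 with it. The ratios to macrophage markers of Tyrobp, Fcer1g, Fcgr1, Fcgr2b and Fcgr3 overlapped between SPM and DCM. Those of Tyrobp were 0.015 ± 0.0019 in DCM and 0.0147 ± 0.00084 in SPM. The ratio for Syk was lower in every SPM library than in every DCM library, at 0.0498 ± 0.012 and 0.0711 ± 0.0083 (exact permutation p = 0.1, adjusted 0.24). Syk itself had a mean of 59.4 normalized CPM in DCM and 59.2 in SPM. The lower ratio thus reflects the larger macrophage sum in SPM and not a fall of Syk.

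Per length, Fcgr3 was the most abundant Fc gamma receptor gene. Its FPKM (fragments per kilobase of gene length, scaled to the library total like CPM) was 24.9 ± 2.1 in CK, 15.9 ± 2.2 in DCM and 25.5 ± 9.0 in SPM (SD, n = 3). Of the summed FPKM of the 4 Fc gamma receptor genes, Fcgr3 took 71.4% ± 2.6 in CK, 72.8% ± 1.6 in DCM and 66.5% ± 1.5 in SPM. Fcgr4 took 4.58% ± 1.33, 3.76% ± 1.39 and 11.2% ± 2.2, respectively, and every SPM library was above every DCM and CK library. The inhibitory Fcgr2b held 16.5% ± 0.2, 18.4% ± 0.9 and 17.8% ± 1.1. The ratio of activating to inhibitory counts, (Fcgr1 + Fcgr3 + Fcgr4) / Fcgr2b, was 2.08 ± 0.06 in CK, 1.78 ± 0.08 in DCM and 1.84 ± 0.14 in SPM. It was lower in all DCM and all SPM libraries than in all CK libraries (exact permutation p = 0.1 for each, adjusted 0.171), and DCM and SPM overlapped. The FPKM of Fcer1g divided by the summed FPKM of its 3 activating partners was 0.886 ± 0.12 in CK, 0.887 ± 0.084 in DCM and 0.708 ± 0.046 in SPM, lower in every SPM library than in every DCM library (exact permutation p = 0.1, adjusted 0.171).

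**Figure D4:**
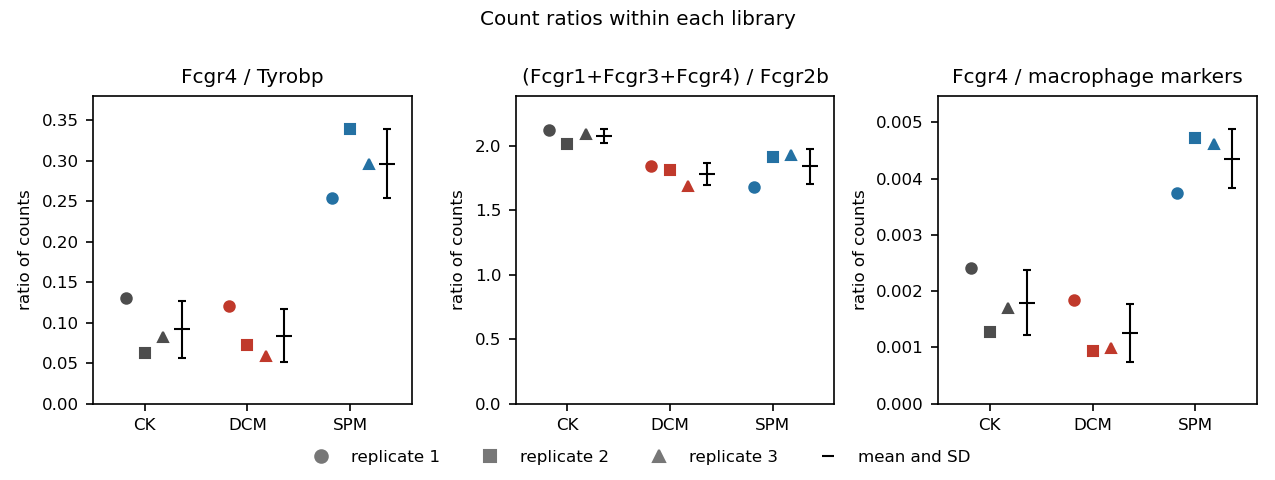
Ratios of counts within each library for Fcgr4 over Tyrobp, for the 3 activating over the inhibitory Fc gamma receptor, and for Fcgr4 over 16 summed macrophage markers, with axes from 0; symbols mark replicates and bars the mean and SD. In both Fcgr4 panels the 3 SPM libraries lie above all others, and in the middle panel the CK libraries, between 2.01 and 2.12, lie above all others.

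Levels of other cell types differed between these groups as well. Within SPM, the macrophage, neutrophil, hepatocyte and Kupffer cell sums were highest in replicate 1 and lowest in replicate 3, as most members were, whereas the monocyte, B cell, mast cell and cardiomyocyte sums ran the other way. SPM replicate 1 was the highest SPM library for 7 of 8 members and SPM replicate 3 the lowest for 7. Over all 12613 genes with a mean of at least 1 CPM, SPM replicate 2 lay between the other SPM libraries for 68.4%. A steady rise or fall from SPM replicate 1 to 3 is therefore common to most genes and no trait of the members. The macrophage sum was 1561, 1200 and 954 normalized CPM in SPM replicates 1 to 3. Neutrophil markers, 14 genes led by S100a9 and Csf3r, summed to 10.9 to 31.7 normalized CPM (CK), 24.1 to 41.7 (DCM) and 45.5 to 86.0 (SPM). Of these, 9 were tested in SPM compared to DCM and 6 were called higher, or 1 without SPM replicate 2. None was at 0, but Camp, Ly6g, Elane and Mpo had 50 counts or fewer in all 9 libraries. Hepatocyte markers, 8 genes led by Alb and Ahsg, summed to 386, 198 and 43.6 normalized CPM in SPM replicates 1 to 3 and to 35.1 to 42.9 in DCM. In CK the hepatocyte sum ranged from 19.6 to 87.0. Fcgr4 was 5.85, 5.66 and 4.39 normalized CPM in SPM replicates 1 to 3, above every DCM library. The hepatocyte, macrophage, neutrophil and Kupffer cell sums all had this order of SPM libraries, so it ties Fcgr4 to none of them. Markers of Kupffer cells, led by Nr1h3 and Vsig4, summed to 32.7 to 35.3 in DCM and 38.3 to 43.1 in SPM. Monocyte markers summed to 192 to 277 in DCM and 130.0 to 192 in SPM, but this sum was mostly Nr4a1, with a mean of 172 in DCM and 95.8 in SPM. Of the 8 monocyte markers tested in SPM compared to DCM, 6 had positive log2 fold changes, with a median of 0.81, 3 were called higher (Ccr2, Plac8 and Chil3) and Nr4a1 was called lower. Without SPM replicate 2, 1 was called higher and 0 lower by edgeR. The part of neutrophils, monocytes, Kupffer cells and hepatocytes in the member values was not tested.

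T cell, NK cell and mast cell sums were lower in every DCM library than in every CK library. T cell markers, led by Cd4 and Lck, summed to 8.85 to 12.8 normalized CPM (CK), 3.18 to 6.86 (DCM) and 6.67 to 7.24 (SPM), and NK cell markers, led by Nkg7 and Gzma, to 3.24 to 6.92, 1.18 to 2.94 and 2.38 to 3.41. B cell markers (Ebf1, Cd79a) summed to 23.9 to 41.9 (CK), 20.8 to 29.6 (DCM) and 26.4 to 33.9 (SPM), most of it Ebf1. All 6 B cell markers tested in DCM compared to CK had negative log2 fold changes, with a median of -1.45, and none was called by edgeR, with 4 at an unadjusted p below 0.05 and 3 called lower by DESeq2. Compared to CK, 3 of 7 were called lower in SPM, or 1 without SPM replicate 2, and 5 of 6 were negative in SPM compared to DCM. Mast cell markers summed to 17.8 to 20.8 (CK), 12.7 to 15.9 (DCM) and 9.63 to 16.4 (SPM). Kit, the most abundant of them, fell in DCM compared to CK by 1.29 on the log2 scale, whereas Mcpt4, Cma1 and Tpsb2 had log2 fold changes of 0.30, 0.63 and 0.72 and were not called. Platelet markers (Pf4, Itga2b) from 23.7 to 37.9 and liver sinusoidal endothelial markers (Flt4, Ehd3) from 54.7 to 68.8 over all libraries. Mitochondrial genes took 13.7% to 16.2% of all counts (CK), 15.5% to 18.9% (DCM) and 21.01% to 21.09% (SPM).

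The genes around the members on chromosome 1 were read as local context. Of the protein-coding genes annotated between Fcgr2b and Fcer1g, Cfap126, Sdhc, Pcp4l1 and Tomm40l were tested and not called in any of the 3 comparisons. Nr1i3 did not pass the low-count filter. Apoa2, a liver apolipoprotein gene, was called in SPM compared to DCM, with a log2 fold change of 3.04 (adjusted p = 0.028, edgeR). Without SPM replicate 2 it was 3.07 and not called.

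The wider pathway was read in 8 lists that hold 115 genes of the matrix besides the members. In DCM compared to CK, 94 of them could be tested, of which 2 were called higher and 13 lower, beside 2.03% and 2.31% of all genes tested. For SPM and DCM, 92 could be tested, with 19 called higher and 2 lower, beside 2.70% and 0.890% of all genes tested. The latter counts depended on single libraries, as calls over all genes did, and were 0 higher and 0 lower without SPM replicate 2, 0 and 1 with DCM replicate 2 left out, 4 and 1 with DCM replicate 1 left out, 10 and 2 with DCM replicate 3 left out, 12 and 1 with SPM replicate 1 left out, and 6 and 1 after the GC correction. Calls over all genes tested went from 521 to 56, 73, 280, 474, 456 and 134 in the same order. Some other settings gave more pathway calls, with 24 higher and 3 lower of 99 tested without SPM replicate 3. DESeq2 gave 21 and 2 of 114, and a fit with a replicate block 22 and 2 of 92. The median log2 fold change of the pathway genes was 0.22 with SPM replicate 2 and 0.21 without it. Those of DCM compared to CK were 2 higher and 6 lower without DCM replicate 2, 2 and 7 without DCM replicate 3, 2 and 7 without CK replicate 2, and 2 and 23 without CK replicate 3. SPM compared to CK gave 9 higher and 13 lower of 97 tested, beside 5.08% and 4.12% of all genes tested, with 4 and 7 left without SPM replicate 2 and 7 and 7 without CK replicate 1. Each SPM to DCM call named in the lists that follow was therefore lost without SPM replicate 2. Of the SPM to CK calls named, those of Fcrla, Ighg2b, Clec4d, Clec4e, Blnk, Sh3bp2, Cd247, Cd79b, Clec7a and Gpnmb stayed without it. The others were lost.

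Immunoglobulin genes, the source of the ligands, did not move together. In DCM compared to CK, 1 of 6 tested was called higher and 2 lower, with a list median of -0.71. Ighg2c, which encodes an IgG heavy chain, had 2.34 ± 0.99 normalized CPM in CK, 7.43 ± 0.41 in DCM and 3.95 ± 0.50 in SPM (SD, n = 3). It rose by 1.66 on the log2 scale in DCM compared to CK (SE 0.25, adjusted p = 0.00145, edgeR) and fell by 0.91 in SPM compared to DCM (SE 0.15, adjusted p = 0.0102, edgeR). Ighm, the IgM heavy chain and the most abundant of the list, fell from 36.1 ± 12.0 to 17.1 ± 4.9 normalized CPM in DCM compared to CK, and Ighd fell by 1.70 on the log2 scale. Ighg2b had 0.255 ± 0.21 normalized CPM in CK, 0.358 ± 0.30 in DCM and 1.77 ± 0.30 in SPM, with log2 fold changes of 2.24 in SPM compared to DCM and 2.74 in SPM compared to CK. The constant region genes Ighe, Igkc, Iglc1 and Iglc3 were not analysed here.

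Among the other Fc receptors, 1 of 7 tested genes was called lower in DCM compared to CK, with a list median of -1.498. This was Fcrls, an Fc receptor-like gene, at 15.997 ± 3.7 normalized CPM in CK, 5.66 ± 0.46 in DCM and 7.90 ± 2.7 in SPM, with a log2 fold change of -1.498 (SE 0.17, adjusted p = 0.00017, edgeR). Between SPM and DCM, edgeR and DESeq2 called 0 of 6, with 2 at an unadjusted p below 0.05. Against CK, 4 of 8 were called lower in SPM, Fcrla (-3.93), Fcmr (-1.95), Fcer2a (-1.92) and Fcrls (-1.02), of which Fcer2a is the low-affinity IgE receptor of B cells and Fcmr a receptor for IgM. Without SPM replicate 2, Fcrla alone stayed called, and the log2 fold changes of Fcmr, Fcer2a and Fcrls were -2.13, -2.04 and -0.96. Fcrla was then too low in SPM and DCM for a test between these groups. The size of its difference from CK is therefore uncertain. The most abundant of the list were the neonatal receptor gene Fcgrt, at 82.3 ± 3.1, 76.0 ± 3.0 and 66.9 ± 2.5 normalized CPM in CK, DCM and SPM, and the cytosolic antibody receptor gene Trim21, at 12.5 ± 1.0, 9.73 ± 0.71 and 11.1 ± 0.68, neither of which was called.

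Of the other receptors that pair with TYROBP or FCER1G, 1 of 11 was called lower in DCM compared to CK, Cd300c2, by 1.07 on the log2 scale. Relative to DCM, 4 of 11 were called higher and 1 lower in SPM, with a list median of 1.10. Those higher were Sirpb1b (2.09), Clec5a (1.81), Clec4d (1.72) and Clec4n (1.18), and the one lower was Oscar (-1.02). Clec5a encodes a TYROBP-coupled lectin of myeloid cells and had 0.982 ± 0.23 normalized CPM in CK, 0.728 ± 0.36 in DCM and 2.58 ± 0.82 in SPM. Clec4n, Clec4d and Clec4e encode the FCER1G-coupled lectins Dectin-2, MCL and Mincle. Against CK, Clec4d (2.74), Clec5a (1.38) and Clec4e were called higher in SPM. Clec4e had 2, 0 and 1 counts in CK and 26, 29 and 28 in SPM, so no fold is given. Cd300ld, the most abundant of the list, was not called.

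Among the other Src family kinases, Lck, the kinase of T cells, was called lower in DCM (-1.54) and in SPM (-1.21), each compared to CK. The myeloid kinase gene Fgr was called higher in SPM compared to DCM, with a log2 fold change of 1.33, and in SPM compared to CK (1.15). Fgr had 2.05 ± 0.96 normalized CPM in CK, 1.82 ± 1.0 in DCM and 4.59 ± 0.53 in SPM. It was not called in DCM compared to CK, and Fyn, the most abundant, was called in no comparison. Src was called lower in SPM compared to CK (-0.61).

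Downstream of SYK, 1 of 22 tested effectors was called lower in DCM compared to CK, Blnk, a scaffold of B cell receptor signalling, with a log2 fold change of -0.93. The SPM to DCM comparison called 3 of 22 higher, the membrane adaptor Lat2 (1.05), the leukocyte GTPase Rac2 (0.63) and its exchange factor Vav1 (0.61). The list medians were -0.29 and 0.15. The most abundant effectors, Gab2 and Cbl, were called in no comparison. Blnk (-0.77) and Sh3bp2 (-0.71) were called lower in SPM compared to CK.

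Inhibitors of ITAM signalling form a list of 20 tested genes. In DCM compared to CK, 4 of 20 were called lower, Lair1 (-0.997), Clec12a (-0.996), Siglece (-0.87) and Dok2 (-0.79), with a list median of -0.43. The SPM to DCM comparison called 8 of 20 higher, with a list median of 0.51, among them Pilra (1.80), Siglece (1.42), Cd72 (1.26) and Lair1 (1.14). Lair1, a collagen receptor with ITIMs, had 4.65 ± 1.6 normalized CPM in CK, 2.31 ± 0.71 in DCM and 5.12 ± 0.70 in SPM. Siglece, a sialic acid receptor with an ITIM, had 3.03 ± 0.11, 1.64 ± 0.29 and 4.43 ± 2.0. Compared to CK, Pilra (1.23) and Pirb (0.86) were called higher and Dok2 (-0.85) lower in SPM. The most abundant of the list, the phosphatase gene Ptpn11 and the CD47 receptor gene Sirpa, were called in no comparison.

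The list of other ITAM adaptors holds chains of T, NK and B cell receptors. It also holds Hcst, an adaptor whose own motif is not an ITAM. Cd247, the zeta chain of T cells, was called lower in DCM compared to CK (-1.01) and in SPM compared to CK (-1.35), and Cd79b, a chain of the B cell receptor, in SPM compared to CK (-1.73). Between SPM and DCM, edgeR and DESeq2 called 0 of 5 tested, with 0 at an unadjusted p below 0.05. Of 15 tested genes associated with TREM2, Gpnmb was called higher in DCM compared to CK (1.18) and in SPM compared to CK (1.14), from 3.72 ± 0.62 normalized CPM in CK to 8.45 ± 1.5 in DCM and 8.21 ± 0.55 in SPM. The beta-glucan receptor gene Clec7a fell in DCM compared to CK (-1.37), as did Adam17, a protease that sheds TREM2 (-0.66). Clec7a was also called lower in SPM compared to CK, and stayed called without SPM replicate 2, at -0.83. Lgals3 was called higher in SPM compared to DCM (0.63) and in SPM compared to CK (0.75). The TREM2 ligand gene Apoe, at 1056, 967 and 970 normalized CPM in CK, DCM and SPM, was called in no comparison, nor was Lpl.

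**Figure D5:**
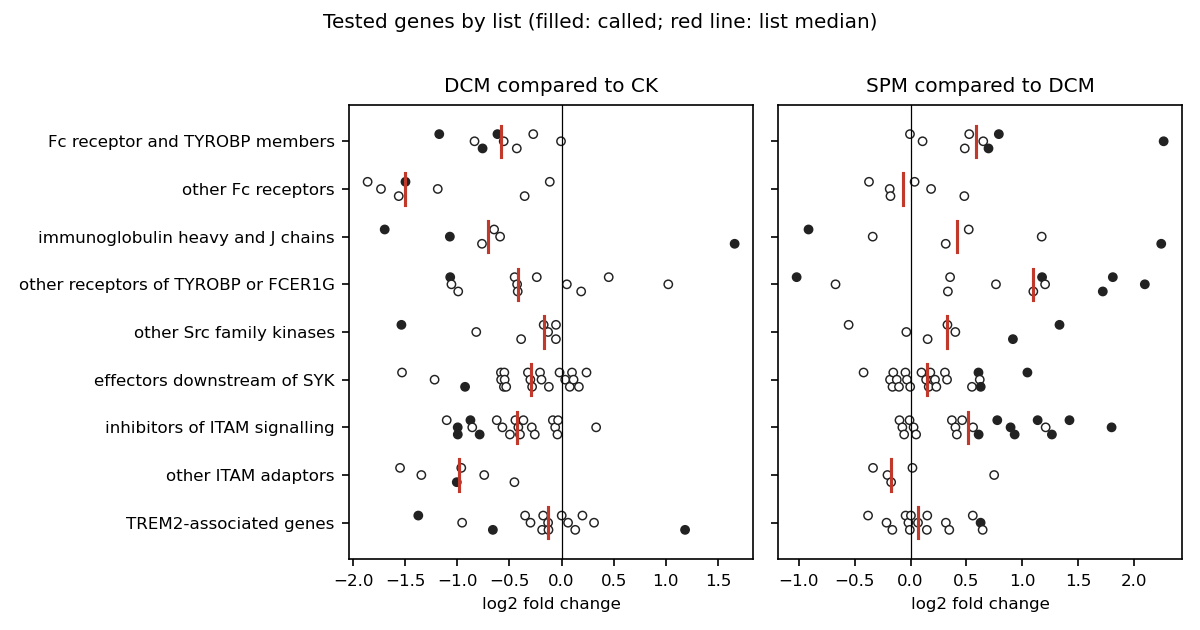
Log2 fold changes of the tested genes of the member set and of 8 pathway lists in DCM compared to CK and in SPM compared to DCM; each point is a gene, filled points were called and red lines are list medians. The inhibitors of ITAM signalling have medians of -0.43 and 0.51, beside -0.59 and 0.59 for the members.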

How the data were processed

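RNA was sequenced from 9 libraries of 3 CK, 3 DCM and 3 SPM mice or pools, grouped by their titles. The authors deposited whole-number counts per gene, made from reads filtered with fastp. The submitters' processing notes name Bowtie 0.12.2 and the builds mm8 and mm9 without a role, while the sources used here name neither counting tool nor annotation. FPKM values were deposited too, and equal the counts over a single gene length and the summed counts of the library. That length is the longest GENCODE M21 transcript for 97.6% of 22851 genes. Symbols and coordinates came from M21 by Ensembl identifier, and 31 identifiers stayed unnamed.

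Groups were compared in pairs of 6 libraries with edgeR 4.0.16 (filterByExpr, TMM, quasi-likelihood F-test) in R 4.3.3, over all genes with Benjamini-Hochberg adjustment, with limits of 0.05 for the adjusted p and 1.5 for the fold change. Ratios of counts were compared by two-sided exact permutation tests over libraries. The steps were tested on simulated data. The members and gene lists were chosen with earlier results of these data known. Named were all members and, of each list, the 2 most abundant genes and up to 4 called genes per comparison with the largest fold change. Oscar was named outside this rule, after its value was seen, as were Gm38204, Gm11787, Cplx2, Hcst and genes between Fcgr2b and Fcer1g. Of the listed genes, 17 were not analysed here, and some results are not reported here. Alternatives were DESeq2 1.42.0, scaling by RLE, fold limits of 1.3 or none, testing without a low-count filter or with one of 1 CPM in 3 libraries, a joint fit of the 9 libraries, a replicate block, limma 3.58.1 on log2 of FPKM plus 0.1 or plus 1, a GC trend (lowess span 0.3) as offset, and each library left out in turn. Python 3.11.15, scipy 1.17.1 and matplotlib 3.10.9 served for tests and figures.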

Additional observations from a re-analysis of the deposited data

How the results depend on the processing

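Over 17 alternatives and 3 comparisons, 358 of 408 member log2 fold changes kept their sign and call, 24 lost a call, 12 gained one and 14 changed sign. In DCM compared to CK, 5 members were called with a fold limit of 1.3 or none. In SPM compared to DCM, 1 was called with DESeq2, with limma on FPKM plus 0.1 or plus 1 and after the GC correction. With each library left out, 2 to 4 members were called in DCM compared to CK, 1 to 6 in SPM compared to DCM and 1 to 2 in SPM compared to CK. The same replicate numbers did not pair the libraries (residual correlations of -0.0746 to 0.205, against -0.284 to 0.217 for other pairs). The replicate block gave 3, 3 and 1 members called, as without it.

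The log2 fold change of Syk in DCM compared to CK was 7.81e-05 with DESeq2 and 0.00765 after the GC correction, in SPM compared to DCM 0.00335 with the filter of 1 CPM and 0.092 after the GC correction, and in SPM compared to CK 0.0958 after it. That of Lyn in SPM compared to DCM was -0.0317 after it. Fcgr3 in SPM compared to CK was -0.0194 and -0.0166 by limma, where the median of all genes was -0.0829 and -0.0589. The cause of these sign changes was not tested. With libraries left out, Syk ran from -0.0307 to 0.0429, from -0.0381 to 0.0158 and from -0.0428 to 0.0256 in the 3 comparisons, and in SPM compared to CK Fcer1g ran from -0.318 to 0.0601 and Fcgr3 from -0.152 to 0.364. The log2 ratio of Fcgr4 to Tyrobp in DCM compared to CK ran from -0.419 to 0.164. Among ratios to macrophage markers, SPM minus DCM ran from -0.121 to 0.0668 for Tyrobp and from -0.0101 to 0.26 for Fcgr1, and SPM minus CK from -0.171 to 0.00226 for Fcgr3 and from -0.352 to 0.00452 for Syk. Depth limits Trem2, with 31 counts in 9 libraries.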
